A study of Mus musculus with 4 samples.

Results

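Inner hair cells are the sensory receptors that pass sound to the auditory nerve, and the 10 genes examined here mark these cells or build their ribbon synapse. They were chosen by name, as known inner hair cell markers and ribbon synapse genes, from the 37239 gene identifiers of the deposited tables, and each matched 1 identifier. The tissue was whole cochlea of mice at postnatal day 8, before the onset of hearing. Wild-type mice (Ikzf2+/+) were compared with littermates homozygous for the cello allele (Ikzf2cello/cello), with 2 RNA-seq libraries per genotype. Ikzf2 encodes helios, a zinc finger transcription factor expressed in outer hair cells, and cello is known as a point mutation that changes the helios protein. The labels give no other allele or treatment, and they do not say whether a library holds 1 animal or several. The p-values therefore set the difference between genotypes against the spread between libraries of the same genotype, which may not be the spread between animals. For each gene, this spread is in part borrowed from a trend over all tested genes.

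A mature inner hair cell, older than those in this tissue, releases glutamate continuously and in proportion to its membrane voltage. Calcium enters through L-type channels clustered beneath a synaptic ribbon, otoferlin senses the calcium and drives vesicle fusion, and the vesicles have been filled by the transporter VGLUT3. The ribbon itself is built mainly of ribeye, a protein made from the same gene as the transcriptional corepressor CtBP2, and calcium-binding proteins of the CaBP family slow the inactivation of the channels. In a whole cochlea these cells are a small part of the tissue, and several of the genes are also expressed by spiral ganglion neurons, the cells that receive the synapse.

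Gene starts are shown for 3 members. Slc17a8 and Cabp1 had the most negative and the most positive log2 difference between genotypes in the main fit, and Ctbp2 has an internal start for its ribeye product. By the ratio of means Fgf8 was lower than Slc17a8 (27.8% against 23.3% below wild-type), but no RefSeq window was available for Fgf8. Each sequence is the 250 bases before a start in RefSeq (GRCm38.p6), 5′ to 3′ on the minus strand, where all 3 genes lie. Capitals mark GGGAA or its complement TTCCC, the core bound by Ikaros family zinc fingers, searched on both strands.
Slc17a8, start of the transcript for 601 residues, chr10:89621250-89621499: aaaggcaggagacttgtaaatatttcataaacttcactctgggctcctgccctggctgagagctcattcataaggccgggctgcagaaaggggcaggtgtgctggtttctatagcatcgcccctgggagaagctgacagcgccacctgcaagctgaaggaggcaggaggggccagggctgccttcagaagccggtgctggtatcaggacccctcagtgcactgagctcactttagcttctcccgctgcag
Slc17a8, start of the transcript for 417 residues, chr10:89599816-89600065: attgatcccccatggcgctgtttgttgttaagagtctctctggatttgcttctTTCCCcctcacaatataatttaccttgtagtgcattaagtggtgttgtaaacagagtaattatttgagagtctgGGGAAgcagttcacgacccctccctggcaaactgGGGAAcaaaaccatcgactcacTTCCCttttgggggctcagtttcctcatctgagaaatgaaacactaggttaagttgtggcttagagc
Cabp1, start of the transcript for 350 residues, chr5:115194382-115194631: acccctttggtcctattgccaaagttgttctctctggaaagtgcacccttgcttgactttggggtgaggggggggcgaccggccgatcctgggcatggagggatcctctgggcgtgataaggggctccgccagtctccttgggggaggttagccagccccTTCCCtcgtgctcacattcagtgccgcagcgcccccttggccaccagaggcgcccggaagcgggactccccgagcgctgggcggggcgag
Cabp1, start of the transcript for 167 residues, chr5:115186122-115186371: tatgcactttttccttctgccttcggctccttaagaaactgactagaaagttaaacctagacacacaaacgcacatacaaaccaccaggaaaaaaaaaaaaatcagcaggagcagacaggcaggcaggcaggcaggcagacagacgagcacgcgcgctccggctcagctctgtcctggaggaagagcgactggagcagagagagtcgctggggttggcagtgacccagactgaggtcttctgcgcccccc
Ctbp2, start of the transcript for 988 residues, chr7:133015248-133015497: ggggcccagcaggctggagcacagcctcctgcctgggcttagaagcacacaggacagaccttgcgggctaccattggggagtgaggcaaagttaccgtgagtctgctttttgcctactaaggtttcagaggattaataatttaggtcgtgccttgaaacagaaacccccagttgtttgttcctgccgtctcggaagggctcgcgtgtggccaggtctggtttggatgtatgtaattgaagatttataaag

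The core was read 4 times before the internal start of Slc17a8 and 0 times before its first start. It was read 1 time before the longer Cabp1 transcript, 0 times before the shorter one, and 0 times before the ribeye start of Ctbp2. Of all 32851 windows of this length, 56.2% held the core at least once and 5.88% held it 3 times or more. RefSeq gave 12 windows for 7 of the 10 members, and 6 of the 12 held the core. A match is a description of letters, and no binding was measured. Counting was per gene, so reads from the separate starts of Ctbp2, Cabp1 and Slc17a8 were pooled, and ribeye cannot be told apart from CtBP2.

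The 4 libraries held between 42152616 and 49719984 counted alignments, of which 70.0% to 72.8% lay in genes, and 1 read was worth 0.0201 to 0.0237 CPM (counts scaled to the total of the library). Hair cell transcripts were present in every library, with Myo7a, a myosin gene of both hair cell types, between 14.2 and 21.0 CPM. Their level was not even, since of 10 genes of both hair cell types 9 had a log2 fold change (cello minus wild-type) below 0 (56.6% of all genes). Myo7a was the 1 gene above 0. The libraries differed in the summed level of neuron and Schwann cell transcripts. The summed level of 13 spiral ganglion neuron markers was 218 and 645 CPM in wild-type replicates 1 and 2 and 795 and 951 CPM in cello, and that of 9 Schwann cell markers was 790 and 1741 against 2286 and 2733 CPM. Of these 22 genes, 0 had a value of 0 in any library. In bulk tissue, fewer cells of a type and less RNA per cell cannot be told apart.

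Of the 10 genes, 9 reached 1 CPM in at least 2 libraries and were tested among 14721 genes by limma on log2(CPM + 0.5). None of the 9 passed an adjusted p of 0.05, and of all genes tested 0 passed (0%), while 1603 (10.9%) had an unadjusted p under 0.05. Of the 9 members, 1 was lower at that unadjusted level (background 6.47%) and 2 were higher (background 4.42%). edgeR on the recovered reads called 0 genes and DESeq2 called 195. The 9 tested members had a median log2 fold change (cello minus wild-type) of -0.062, beside -0.032 over all tested genes, with 5 of 9 below 0 (56.6% of all genes) and 4 above 0 (43.4% of all genes). Both cello libraries lay below both wild-type libraries for 4 members (background 28.7%) and above them for 2 (background 16.9%).

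**Figure D1:**
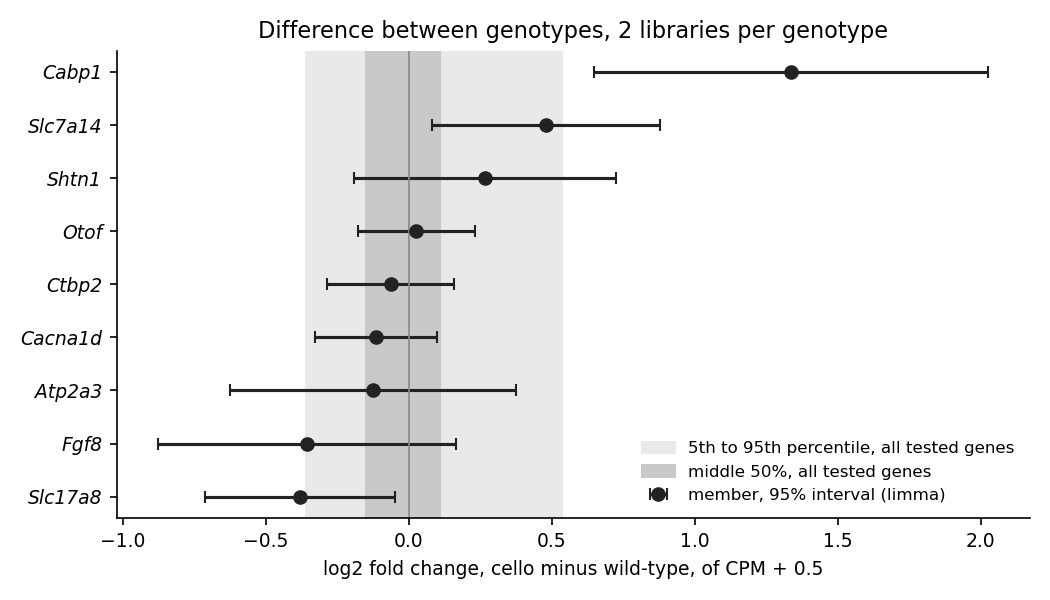
Log2 fold change of the 9 tested members (x axis, cello minus wild-type, of CPM + 0.5) with its 95% interval from limma, over bands that hold the middle 50% and the 5th to 95th percentile of all 14721 tested genes. Cabp1 at 1.34 and Slc17a8 at -0.38 lie outside both bands, while Otof, Ctbp2, Cacna1d and Atp2a3 lie within the inner band.

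Per kilobase of merged exons, a scale on which genes can be compared, Atp2a3 was the highest, at a mean of 10.9 CPM per kb over the 4 libraries. Otof followed at 8.18, Shtn1 at 6.40, Cacna1d at 5.65, Ctbp2 at 5.14 and Slc17a8 at 3.59 CPM per kb. Slc7a14 stood at 1.55, Cabp1 at 1.23 and Fgf8 at 1.20 CPM per kb. The ranges over libraries of Otof and Shtn1, of Shtn1 and Cacna1d, and of Cacna1d and Ctbp2 overlapped, as did those of Slc7a14 and Cabp1 and of Cabp1 and Fgf8, so these neighbours cannot be ordered. Merged exons include every annotated transcript, which lowers the value of a gene with many long alternative exons.

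**Figure D2:**
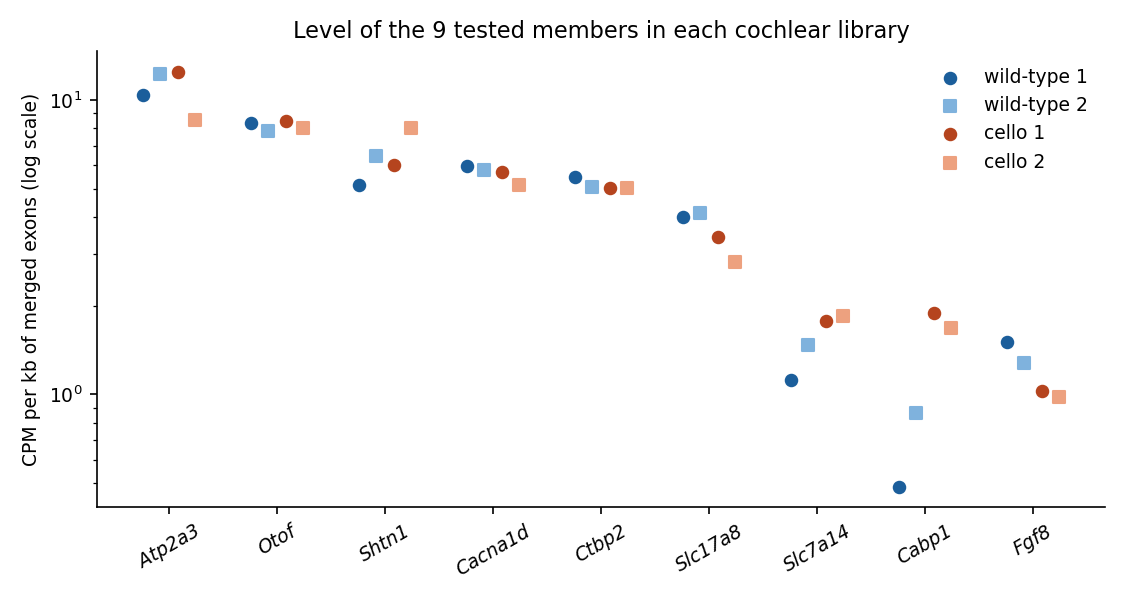
Level of each tested member in each library, as CPM per kb of merged exons on a log axis, with 1 point per library. The 4 points of Otof lie between 7.86 and 8.49 CPM per kb, while those of Cabp1 spread from 0.486 to 1.89, with both cello libraries above both wild-type libraries.

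Otof encodes otoferlin, the calcium sensor of vesicle release, and varied the least across libraries of the 9 tested members. It stood at 65.9 and 62.1 CPM in the wild-type libraries, against 67.1 and 63.4 CPM in the cello libraries, from 2619 to 3276 reads per library. The groups interleaved, and the whole range over the 4 libraries was 0.11 on the log2 scale. Its ratio of cello to wild-type means was 1.02, and the 95% interval of its fold change ran from 0.885 to 1.17 (limma, adjusted p = 0.910). Otof lies on chromosome 5, from 30367062 to 30461932 of GRCm38 on the minus strand. Of all tested genes, 89.0% had a larger absolute difference between genotypes.

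Slc17a8 encodes VGLUT3, the transporter that loads glutamate into the vesicles of inner hair cells. It stood at 18.9 and 19.5 CPM in the wild-type libraries, against 16.1 and 13.3 CPM in the cello libraries. Both cello libraries were below both wild-type libraries, and cello replicate 2 was the lowest. The log2 fold change was -0.38 (SE 0.13), a mean 23.3% lower, with a 95% interval of the fold change from 0.611 to 0.968 (limma, unadjusted p = 0.032, adjusted p = 0.441). Leaving out 1 library at a time gave log2 fold changes from -0.51 to -0.24, the weakest of them without cello replicate 2. The gene occupies chromosome 10 from 89574020 to 89621253 on the minus strand.

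Fgf8 encodes a secreted growth factor that inner hair cells send to the neighbouring pillar cells. It was read at 2.03 and 1.73 CPM in the wild-type libraries, against 1.39 and 1.33 CPM in the cello libraries, which is 59 to 101 reads per library. The cello values lay below both wild-type values, but the counting error alone was 13.0% at the fewest reads. Its log2 fold change was -0.36 (SE 0.20), a mean 27.8% lower, with a 95% interval of the fold change from 0.545 to 1.12 (limma, adjusted p = 0.553). In DESeq2 its log2 fold change was -0.43, lower than the -0.34 of Slc17a8 there. Fgf8 lies on chromosome 19 from 45736798 to 45742915, minus strand.

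Set against Otof within the same library, Slc17a8 amounted to 28.7% and 31.3% of the Otof CPM in wild-type and 24.1% and 20.9% in cello. Fgf8 amounted to 3.08% and 2.79% in wild-type and 2.07% and 2.09% in cello. These ratios, chosen after the values were seen, separate the genotypes in the same direction as the CPM, and the mean of Otof itself was 1.93% higher in cello. Since Otof ranged over only 0.11 on the log2 scale, the ratios largely restate the CPM and are no further check on them. Ctbp2 relative to Otof was 51.6% and 50.5% against 46.5% and 49.4%, and Cacna1d was 114% and 118% against 107% and 103%. The percentages are not corrected for exon length, so they compare libraries and do not rank genes. Per kb, Cacna1d (5.65) was below Otof (8.18). With 2 libraries against 2, an exact permutation test of any of these ratios cannot go below p = 0.333, and none was run.

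**Figure D3:**
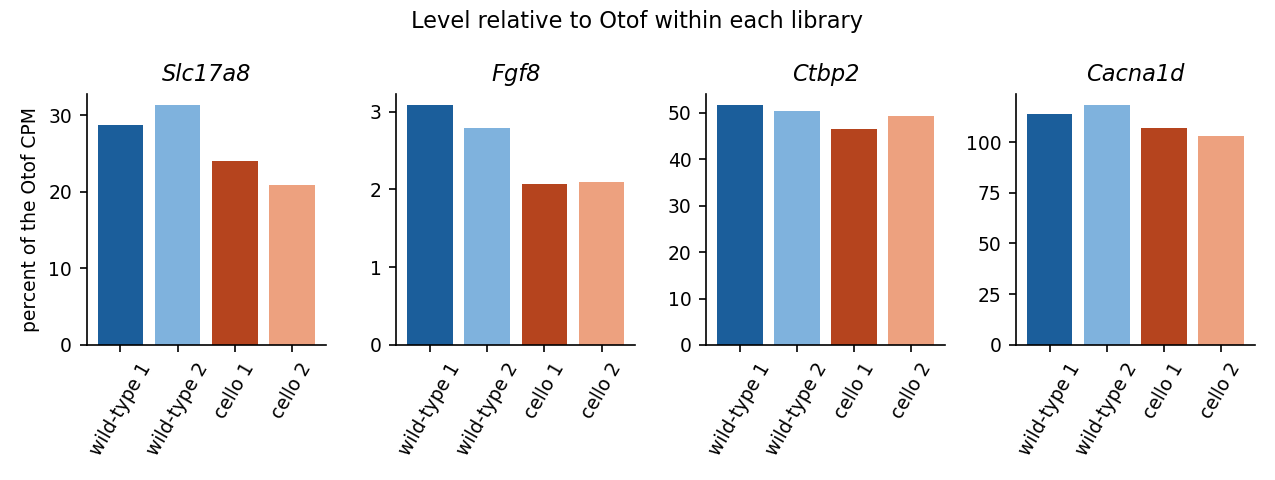
Level of Slc17a8, Fgf8, Ctbp2 and Cacna1d as a percent of the Otof CPM of the same library (y axis, from 0, with its own scale in each panel), 1 bar per library and no error bars. The cello bars of Slc17a8 and Fgf8 (24.1% and 20.9%, 2.07% and 2.09%) are below their wild-type bars, with a smaller gap for Ctbp2 and Cacna1d. Not shown are Cabp1 and Slc7a14, whose ratios were higher in cello, and Shtn1 and Atp2a3, whose ratios overlapped.

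Hair cell genes outside the inner hair cell set gave the frame for these values. Of 10 genes used by hair cells of both kinds, 9 were below 0 (56.6% of all genes) and 0 passed in limma, with a median log2 fold change of -0.46. Of 8 genes listed as outer hair cell markers, 8 were below 0 (56.6% of all genes) and 0 passed, with a median of -0.51. Not all of the 8 are exclusive to outer hair cells at this age, Kcnn2 among them. Values ran from -2.21 for Ocm, which encodes the calcium buffer oncomodulin, to -0.017 for Kcnn2, a potassium channel gene. Kcnn2 turned positive under 3 of 4 other scalings. DESeq2 called 3 of these 8 lower and 1 of the 10 lower (background 0.589%), and 0 of either list higher. Summed outer hair cell markers stood at 266 and 266 CPM in the wild-type libraries, against 134 and 123 CPM in the cello libraries. Of 7 general epithelial markers, 7 were below 0 (56.6% of all genes), with a median of -0.38, and DESeq2 called 1 of them lower (background 0.589%). Beside this median, Slc17a8 stood at -0.38 and Fgf8 at -0.36. Otof stood at 0.027, Ctbp2 at -0.062, Cacna1d at -0.11 and Atp2a3 at -0.12, and Cabp1, Slc7a14 and Shtn1 were above 0. Whether the epithelial share of the tissue has a part in the values of Slc17a8 and Fgf8 was not tested.

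**Figure D4:**
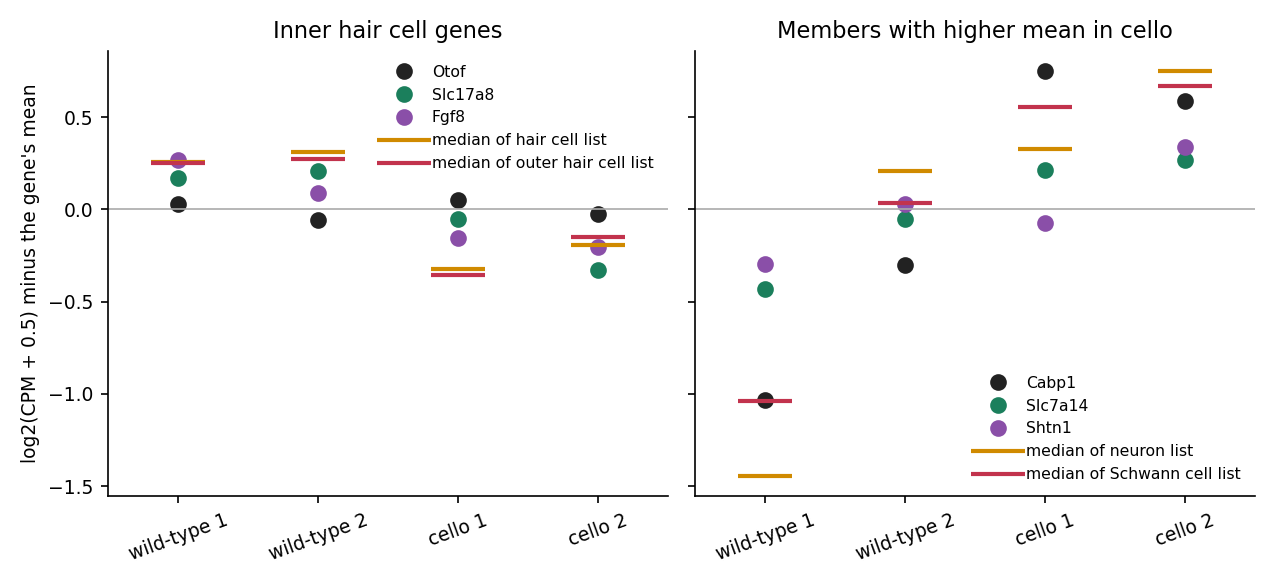
Log2(CPM + 0.5) of single members minus the gene's mean over the 4 libraries (points), beside the median of marker lists on the same scale (dashes). On the left, Otof stays between -0.056 and 0.054 while the hair cell and outer hair cell medians are above 0 in wild-type and below 0 in cello, and on the right, Cabp1 spans -1.04 to 0.75 beside a neuron median of -1.45 to 0.75.

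Of the channel and scaffold genes of the ribbon, Cacna1d encodes the CaV1.3 channel that carries nearly all calcium current of inner hair cells. It stood at 75.0 and 73.1 CPM in the wild-type libraries, against 71.9 and 65.0 CPM in the cello libraries, a log2 fold change of -0.11 (SE 0.084). Both cello libraries were lower, yet the interval of the fold change, from 0.796 to 1.07, included no difference (limma, adjusted p = 0.631). Of its merged exon bases (chromosome 14, 30039939 to 30491455, minus strand), 4.67% overlap Chdh on the other strand. Since the strand setting is not given, reads of the shared bases cannot be assigned with certainty.

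Ctbp2, the gene of ribeye and CtBP2, stood at 34.0 and 31.4 CPM in the wild-type libraries, against 31.2 and 31.3 CPM in the cello libraries. The cello values lay just below the lower wild-type value. Its log2 fold change was -0.062 (SE 0.087), with a fold change interval from 0.821 to 1.12 (limma, adjusted p = 0.805). The gene spans chromosome 7 from 132987563 to 133124354 on the minus strand, and 5.05% of its merged exon bases overlap Fgfr2 on the same strand. Its paralog Ctbp1, whose product is also found at ribbons, stood at 139 and 151 CPM in the wild-type libraries, against 127 and 135 CPM in the cello libraries, a log2 fold change of -0.14.

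Cabp1 encodes CaBP1 and its long neuronal form caldendrin, calcium sensors that bind L-type channels, and had the largest difference of the 9 members. It stood at 2.84 and 5.05 CPM in the wild-type libraries, against 11.0 and 9.78 CPM in the cello libraries, from 141 to 467 reads. Both cello libraries were above both wild-type libraries, and wild-type replicate 1 was the lowest. The ratio of means was 2.63 and the log2 fold change 1.34 (SE 0.27), with a fold change interval from 1.57 to 4.07. Limma gave an unadjusted p of 0.0039 and an adjusted p of 0.419, and edgeR an adjusted p of 0.451. DESeq2 gave an adjusted p of 0.0063, where it called 115 of 13579 genes higher (0.847%). Over all other settings the adjusted p of Cabp1 ran from 0.0063 to 0.931, and without wild-type replicate 1 its log2 fold change was 0.97 in limma. Only 0.503% of tested genes had a larger absolute difference. Cabp1 lies on chromosome 5 from 115168689 to 115194381, minus strand.

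Cabp2 encodes the CaBP that inner hair cells are known to need for sustained calcium current. It was listed at 0 in 3 libraries and at 1 read in wild-type replicate 2 (0.0237 CPM), so it was not tested. A count of 0 allows up to 3 reads, which is 0.0603 to 0.0707 CPM in the 3 libraries at 0, counting error only. Its locus on chromosome 19 (4081578 to 4087340, plus strand) overlaps no other gene in GENCODE M21. The annotation used for counting is not known, so it cannot be seen whether reads of Cabp2 were left out or assigned elsewhere in counting, and these values do not show that the gene was silent. The related Cabp4 was listed at 0 in every library and Cabp5 at 0 in 3 of 4, whereas Cabp7 stood at 8.91 and 6.86 CPM in the wild-type libraries, against 13.2 and 5.14 CPM in the cello libraries.

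The remaining 3 members are markers rather than synaptic parts. Slc7a14, which encodes a transporter-like protein of lysosomes and is expressed by spiral ganglion neurons as well as inner hair cells, stood at 11.0 and 14.4 CPM in the wild-type libraries, against 17.4 and 18.1 CPM in the cello libraries. Both cello libraries were higher, with wild-type replicate 1 the lowest. Its log2 fold change was 0.48 (SE 0.16), with a fold change interval from 1.06 to 1.84 (limma, unadjusted p = 0.027, adjusted p = 0.437). Without wild-type replicate 1 the log2 fold change was 0.29, and without wild-type replicate 2 it was 0.67. The gene lies on chromosome 3 from 31202858 to 31310378, minus strand.

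Shtn1 encodes shootin-1, a linker between the actin cytoskeleton and adhesion molecules that is known from growing axons. It stood at 31.6 and 39.9 CPM in the wild-type libraries, against 37.1 and 49.4 CPM in the cello libraries. The groups overlapped. The log2 fold change of 0.27 (SE 0.18; limma, adjusted p = 0.605) was 0.063 without cello replicate 2 and reached 0.47 without cello replicate 1. Shtn1 occupies chromosome 19 from 58973356 to 59076100 on the minus strand.

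Atp2a3 encodes SERCA3, a calcium pump of the endoplasmic reticulum that blood cells also express. It stood at 54.9 and 64.7 CPM in the wild-type libraries, against 65.9 and 45.3 CPM in the cello libraries, where the highest and the lowest library were both cello. The log2 fold change was -0.12 (SE 0.20; limma, adjusted p = 0.825), and it was -0.39 without cello replicate 1 and 0.14 without cello replicate 2. Summed blood and marrow markers stood at 25.7 and 30.9 CPM in the wild-type libraries, against 55.5 and 22.4 CPM in the cello libraries, with the T cell gene Cd3e listed at 0 in wild-type replicate 2. Between the cello replicates the sum was higher in replicate 1, mostly through S100a8 (21.3 and 1.71 CPM) and Ptprc (12.7 and 4.95 CPM), while the platelet gene Pf4 was higher in replicate 2 (6.38 and 8.18 CPM). The part of blood cells in the value of Atp2a3 was not tested. The broadly expressed pump gene Atp2a2 had a log2 fold change of 0.10. Atp2a3 lies on chromosome 11 from 72961169 to 72993044, plus strand.

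The 3 members above 0 by the most, Cabp1, Slc7a14 and Shtn1, were also those with the widest range over the libraries, at 1.79, 0.70 and 0.64 on the log2 scale. The genes most like each were found by the distance between log2 profiles over the 4 libraries, each centred on its mean. Nearest to Cabp1 was Gria2, an AMPA receptor subunit gene, at a distance of 0.078, with 4.75, 8.87, 17.8 and 16.2 CPM, followed by St8sia1 (0.18) and Sec14l5 (0.19). Nearest to Slc7a14 were Smim13 (0.028), Kif14 (0.055) and Unc79 (0.056), and to Shtn1 they were Mpp6 (0.026), Zcchc18 (0.037) and Galnt16 (0.056). With 4 points a short distance is common among 14721 genes and is given as a description.

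The summed level and the median of the neuron markers were lowest in wild-type replicate 1, as were these 3 members. The median of the 13 neuron markers, centred in the same way, was -1.45 and 0.21 in wild-type and 0.33 and 0.75 in cello. Cabp1 had centred values of -1.04 and -0.30 in wild-type, then 0.75 and 0.59 in cello. Syt1, Gap43 and Prph were lowest in a cello library instead. Of the 13 neuron markers, 10 were above 0 (43.4% of all genes) and 0 passed in limma, with a median log2 fold change of 1.20. Syt1, the gene of synaptotagmin-1, stood at -0.43. Prph and Gap43, at -0.0034 and -0.0036, turned positive under 3 of 4 other scalings. Of 9 Schwann cell markers, 9 were above 0 and 0 passed (median 1.16), and DESeq2 called 3 of them higher (background 0.847%). The part of nerve content in the values of Cabp1, Slc7a14 and Shtn1 was not tested.

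Other genes of the ribbon and active zone, together with the hair cell gene Gipc3, were read from a list of 14, all of them tested. In limma 0 passed in either direction, 10 were above 0 (43.4% of all genes) and 4 below, and the median log2 fold change was 0.31. Cacna2d2, at -0.0034, turned positive under 3 of 4 other scalings. The 3 genes with the highest values were Rims1 at 0.96 (3.60 and 7.62 CPM against 9.16 and 12.5), Bsn, the gene of the scaffold protein bassoon, at 0.79 (5.29 and 8.68 against 11.5 and 12.8) and Rimbp2 at 0.69. Wild-type replicate 1, the library with the lowest sum of the neuron markers, was the lowest for each of these 3 genes. Their unadjusted limma p ran from 0.022 to 0.047 and the adjusted p from 0.435 to 0.455. Pclo, the gene of piccolo, stood at 0.44, Erc2 at 0.53, the kinesin gene Kif1a at 0.56 and Rims2 at 0.35.

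The remaining genes of the list stood lower than these. Cacnb2, the channel subunit that partners CaV1.3 in inner hair cells, stood at 22.3 and 22.4 CPM in the wild-type libraries, against 22.7 and 32.1 CPM in the cello libraries (log2 fold change 0.27). Unc13b stood at 0.090, Erc1 at -0.10 and Clrn1, the gene of clarin-1, at 0.26. Gipc3, a hearing gene expressed in hair cells, had the lowest value of the list, with 5.41 and 6.50 CPM in wild-type against 3.32 and 3.94 CPM in cello and a log2 fold change of -0.64 (limma, unadjusted p = 0.015, adjusted p = 0.425). Both of its cello libraries were below both wild-type libraries.

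Of 3 further inner hair cell markers, Tbx2, the transcription factor gene that sets inner hair cell identity and is expressed in other cochlear cells too, stood at 105 and 105 CPM in the wild-type libraries, against 105 and 89.4 CPM in the cello libraries. Its log2 fold change was -0.12 (limma, adjusted p = 0.674). Calb2, which encodes calretinin in inner hair cells and neurons, stood at 57.7 and 124 CPM against 183 and 220 CPM, a log2 fold change of 1.24 (adjusted p = 0.429). Its lowest library was again wild-type replicate 1. Dnajc5b stayed below 0.24 CPM throughout and was not tested.

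Genes linked to Fgf8 were read from a list of 11 receptors and targets, of which 0 passed in limma and the median log2 fold change was 0.011. Whether Fgf8 of inner hair cells has a part in their levels in whole cochlea was not tested. Fgfr3, the receptor of pillar and Deiters cells, stood at 104 and 108 CPM in the wild-type libraries, against 91.8 and 82.1 CPM in the cello libraries (log2 fold change -0.29, limma, unadjusted p = 0.020, adjusted p = 0.429). Fgfrl1, a receptor without a kinase, stood at -0.38, and the target genes Etv5 and Spry2 stood at -0.18 and -0.16. Fgfr1 stood at 161 and 154 CPM against 197 and 190 CPM, with a log2 fold change of 0.30. It was the list's single call in DESeq2 (adjusted p = 0.046, background of higher calls 0.847%, limma adjusted p = 0.421). Spry1, Spry4, Etv4 and Dusp6 lay between 0.011 and 0.17.

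Relatives of the members were read from a list of 22, of which 15 were tested, with 7 above 0, 8 below, 0 passing in limma and a median of -0.046. Slc17a7 and Slc17a6, the vesicular glutamate transporter genes of neurons, stood at 10.1 and 37.6 CPM and at 4.22 and 11.3 CPM in wild-type, against 54.5 and 51.3 CPM and 13.0 and 17.9 CPM in cello. Their log2 fold changes were 1.41 and 1.07, opposite in sign to the -0.38 of Slc17a8, and neither passed in limma (adjusted p = 0.467 and 0.469). The ferlin gene Myof, a relative of Otof, stood at -0.36 (adjusted p = 0.419), and Dysf, the gene of dysferlin, at -0.046. Of the other L-type channel genes, Cacna1c stood at 0.34, and Cacna1f and Cacna1s stayed below 0.29 CPM.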

How the data were processed

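The authors deposited 1 table of CPM, gene counts scaled to the library total, for each of 4 libraries. Per the labels, libraries were made with the TruSeq kit, and per the submitters' processing notes TopHat and GRCm38 were used. Neither the counting program nor its use of strand nor the gene annotation is given in the sources used here. The deposited CPM include 5 entries that name no gene, which hold 27.2% to 30.0% of alignments and were kept out of tests. All values (100%) were whole multiples of 1 read (tolerance 0.001 of a read), so reads were recovered. Symbols, positions and merged exon lengths came from GENCODE M21 (36588 of 37239 identifiers matched).

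The filter asked for 1 CPM or more in 2 or more libraries, and genes that passed it were fitted by genotype with limma 3.58.1 (R 4.3.3) on log2(CPM + 0.5), with a variance trend, two-sided, Benjamini-Hochberg adjustment over all tested genes and a threshold of 0.05. This scale understates the change of low genes. edgeR 4.0.16 (quasi-likelihood) and DESeq2 1.42.0, which left 1142 adjusted p undefined, served as alternatives on the recovered reads. The fits were tested on simulated data. Figures used Python 3.11.15 and matplotlib 3.10.9. The members and gene lists were chosen with earlier results of these data known. All members are named, with up to 5 genes of each other list by smallest unadjusted p, any gene of the ribbon, inner hair cell and Fgf8 lists, and the 3 genes nearest to each of the 3 members of widest range. Kcnn2, Prph, Gap43, Syt1, Cd3e, Myo7a, S100a8 and the members of the relatives' list beyond its 5 smallest p were named after their values were seen.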

Additional observations from a re-analysis of the deposited data

How the results depend on the processing

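The count of genes past the threshold, 0 in limma, was 195 in DESeq2 (115 higher, 80 lower) and 0 in edgeR, and it ran from 0 to 90 when 1 library was left out, with the 90, all higher in cello, without wild-type replicate 2. The median log2 fold change of the members, -0.062, was -0.018 with a mean CPM of at least 5, which leaves out Fgf8, -0.022 with TMM, -0.024 with median-of-ratios scaling, -0.034 with CPM over reads in genes, -0.024 in edgeR and -0.026 in DESeq2. Leaving out 1 library gave -0.061 to 0.063, with 0.063 without cello replicate 2. Otof changed sign when wild-type replicate 2 or cello replicate 1 was left out (-0.015 and -0.013, range -0.015 to 0.069), and Atp2a3 without cello replicate 2 (0.14, range -0.39 to 0.14). The cause was not tested. The other members kept their sign under all 17 settings that could be run for them, and Cabp1 was the only member called under any of them, in DESeq2 (log2 fold change 1.44). Scalings moved the median of all genes by at most 0.039. With the replicate number as a block, 0 genes passed and the median of the members was -0.062. Deviations of equally numbered libraries correlated at 0.13 across genes, and the labels do not say that a number marks a litter. At 59 to 101 reads, Fgf8 is limited by counting, and 2 libraries per group limit every member.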
